A study of Mus musculus with 41 samples.

Results

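The 9 genes described here mark B and T lymphocytes: Cd79a, Cd79b and Ms4a1 for B cells, and Cd3e, Cd3g, Cd4, Cd8a, Lef1 and Tcf7 for T cells. They were taken by name from the gene symbols of the arrays, 9 of 27962 symbols, and were measured by 17 of 41174 probes. Each array carried the Cy5-labelled RNA of 1 female C57BL/6 mouse (C57BL/6BomTac in the study's methods) against a Cy3-labelled universal mouse reference RNA, a commercial mixture of RNA from mouse cell lines, so each value is the log2 ratio of mouse over reference. Exposed mice had inhaled nanoTiO2 (UV-titan L181, a surface-coated rutile) at a labelled 40 mg/m3 for 1 hr per day on 11 days, control mice breathed filtered air, and tissue was taken 5 days after the last exposure. There were 7 exposed and 6 control lung arrays and 7 exposed and 8 control liver arrays. The mice had been time-mated and had not conceived, and the labels give their age as equivalent to GD4. Of these mice, 12 were measured in both tissues.

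In lymphocytes these genes fall into a few roles. Cd79a and Cd79b encode the signalling subunits of the B cell receptor, and Ms4a1 encodes CD20, a surface protein of mature B cells. Cd3e and Cd3g encode subunits of the CD3 complex, which carries the signal of the T cell receptor, and Cd4 and Cd8a encode the coreceptors of helper and cytotoxic T cells. Lef1 and Tcf7 encode related DNA-binding proteins that work with beta-catenin and are high in naive T cells. Lung holds circulating and resident lymphocytes of both kinds, and among the lymphocytes of the liver natural killer (NK) cells are common. The RNA came from pieces of whole tissue, so fewer cells of a type and less RNA per cell cannot be told apart.

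Of the spots that were not controls, 61.3% to 67.5% on the lung arrays and 55.1% to 70.5% on the liver arrays were well above background in Cy5. Each slide held arrays of 1 tissue, and lung and liver arrays were read with different versions of the scanner software, so tissue cannot be told apart from slide or software. On a slide the exposed mice took positions 1 and 2 and the control mice positions 3 and 4, so exposure cannot be told apart from position. The tissues matched their labels: all 8 lung epithelium genes tested were higher in control lung than in control liver (median log2 difference 4.61), and all 8 hepatocyte genes were lower (median -5.23). The text gives for each gene the probe with the brightest mean Cy5 signal, with its other probes beside it.

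The genes were first compared between the lungs and livers of control mice, which shows where they were expressed without exposure. By limma's moderated test with Benjamini-Hochberg adjustment over 41149 probes, 8 of the 9 genes differed at an adjusted p under 0.05, where 59.6% of all probes did. The values of the tissues did not overlap for these 8 genes, nor for 41.3% of all probes. Cd79b, Ms4a1, Lef1, Cd8a, Cd3g and Tcf7 were higher in lung. Cd3e and Cd4 were lower in lung, and Cd79a did not pass the test.

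Cd79b and Ms4a1 had the largest differences of the 9. In control lungs the log2 ratio of Cd79b was lowest at 0.27, with a median of 0.80 and a highest value of 1.23. In control livers it was lowest at -3.07, with a median of -2.89 and a highest value of -2.30. The tissues did not overlap, and the difference was 3.54 (SE 0.15), or 11.7-fold (adjusted p = 8.5e-19). The log2 ratio of Ms4a1 ran from -0.04 over a median of 0.68 to 1.2 in control lungs and from -3.30 over a median of -2.83 to -2.27 in control livers. The tissues again did not overlap, and the difference was 3.39 (SE 0.19), or 10.5-fold (adjusted p = 8.6e-16). The second Ms4a1 probe gave a difference of 2.36 (SE 0.17) in the same direction. For both genes the exact 2-sided permutation p over the 3003 splits of the 14 control arrays was 0.000333, the smallest these splits can give. The splits treat the arrays as separate, although 6 control mice gave both a lung and a liver array, and this p restates the lack of overlap.

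Cd79a, the partner of Cd79b in the same receptor, gave a different picture. Its only probe had log2 ratios of 0.18 ± 0.19 (SD, n = 6) in control lung and 0.09 ± 0.15 (SD, n = 8) in control liver, and the groups overlapped. The difference of 0.087 (95% confidence interval -0.069 to 0.24) did not pass the test (adjusted p = 0.35). The probe was well above background on all 13 lung arrays but on only 4 of 7 exposed and 4 of 8 control liver arrays. These liver arrays were those of slides 2 and 4. Against the control livers of slides 1 to 4 the difference was 0.21, -0.025, 0.23 and -0.074 in turn, so its sign changed with the slide. The part of the slide in the Cd79a comparison was not tested. With the scanner software's own processed signals in place of the corrected medians, Cd79a was called as higher in lung, with a difference of 1.32 (adjusted p = 0.0035).

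The subunits of the CD3 complex differed in the direction of their probes. Cd3g had log2 ratios of -1.13 ± 0.20 (SD, n = 6) in control lung and -1.97 ± 0.17 (SD, n = 8) in control liver, a difference of 0.84 (SE 0.093, adjusted p = 3.7e-09) with no overlap. Cd3e had -0.18 ± 0.07 (SD, n = 6) in control lung and 1.28 ± 0.77 (SD, n = 8) in control liver, a difference of -1.46 (SE 0.28, adjusted p = 3.8e-05), also with no overlap. The second Cd3e probe was well above background on none of the arrays in either tissue. The 8 liver values behind the Cd3e mean went with the slide, with a range of 1.53 between slide means that exceeds the tissue difference, and the part of the slide in that difference was not tested.

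Of the coreceptors, Cd8a was higher in lung by its 2 brightest probes. Cd8a had log2 ratios of 1.18 ± 0.26 (SD, n = 6) in control lung and 0.20 ± 0.13 (SD, n = 8) in control liver, a difference of 0.98 (SE 0.078), and a second probe gave 0.98 (SE 0.072). Both probes were well above background on all 6 control lung arrays, but the brightest on only 4 and the second on only 2 of 8 control liver arrays. For the brightest probe these 4 were the control arrays of liver slides 2 and 4. Its liver values went with the slide (adjusted p over the 4 slides = 0.022). Against the control livers of slides 1 to 4 its difference was 1.13, 0.89, 1.07 and 0.84 in turn. The third Cd8a probe was well above background on 1 control lung array and on 0 control liver arrays, and its difference of 0.099 did not pass the test. Cd4 had 0.022 ± 0.044 (SD, n = 6) in control lung, where its probe was not well above background on any of the 6 arrays. It had 0.36 ± 0.14 (SD, n = 8) in control liver, where the probe was well above background on all 8. The difference in log2 ratio was -0.33 (SE 0.057, adjusted p = 7.8e-06). On the normalized Cy5 channel alone, which is open to dye bias since no dyes were swapped, Cd4 was at least 1.63-fold higher in liver. The liver values of Cd4 also went with the slide (adjusted p over the 4 slides = 0.00043), whose part in the difference was not tested. The second Cd4 probe was well above background on 3 of 6 control lung arrays and on 0 of 8 control liver arrays. Its log2 ratio was also lower in lung, with a difference of -0.14 (SE 0.044, adjusted p = 0.0079). On Cy5 alone it was at least 1.03-fold higher in lung, so its direction differed between the ratio and the Cy5 channel.

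Lef1 and Tcf7 were both higher in lung by their brightest probes. Lef1 ran from -0.95 over a median of -0.74 to -0.52 in control lungs and from -3.51 to -2.96 in control livers, and the difference was 2.49 (SE 0.11), or 5.61-fold (adjusted p = 3.8e-18). A second Lef1 probe, whose 60 bases map in pieces over 18162 bases of chromosome 3 (131041424 to 131059585, build mm7, plus strand), gave 1.27 (SE 0.081). The third Lef1 probe, which lies upstream of both, was well above background on none of the arrays. Tcf7 had -1.43 ± 0.18 (SD, n = 6) in control lung and -2.23 ± 0.15 (SD, n = 8) in control liver, a difference of 0.79 (SE 0.085, adjusted p = 1.9e-09). The second Tcf7 probe passed the test in the other direction, at -0.30 (SE 0.068, adjusted p = 0.00033), so the Tcf7 probes disagree on the direction.

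Over 12 processing alternatives the tissue difference kept its sign for each of the 9 genes, and it ranged from 3.24 to 3.81 for Cd79b and from 2.88 to 4.04 for Ms4a1. With the background model fitted on all spots, Cd3g (0.42, adjusted p = 0.16) and Tcf7 (0.38, adjusted p = 0.15) were no longer called. The size moved by more than 1.5 times for Cd8a (0.69 to 3.69), Lef1 (1.25 to 4.00), Cd3g (0.42 to 1.51), Tcf7 (0.30 to 0.99), Cd3e (-2.26 to -0.67), Cd4 (-0.79 to -0.23), Cd79a (0.018 to 1.32) and the second Lef1 probe (0.94 to 2.1).

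**Figure D1:**
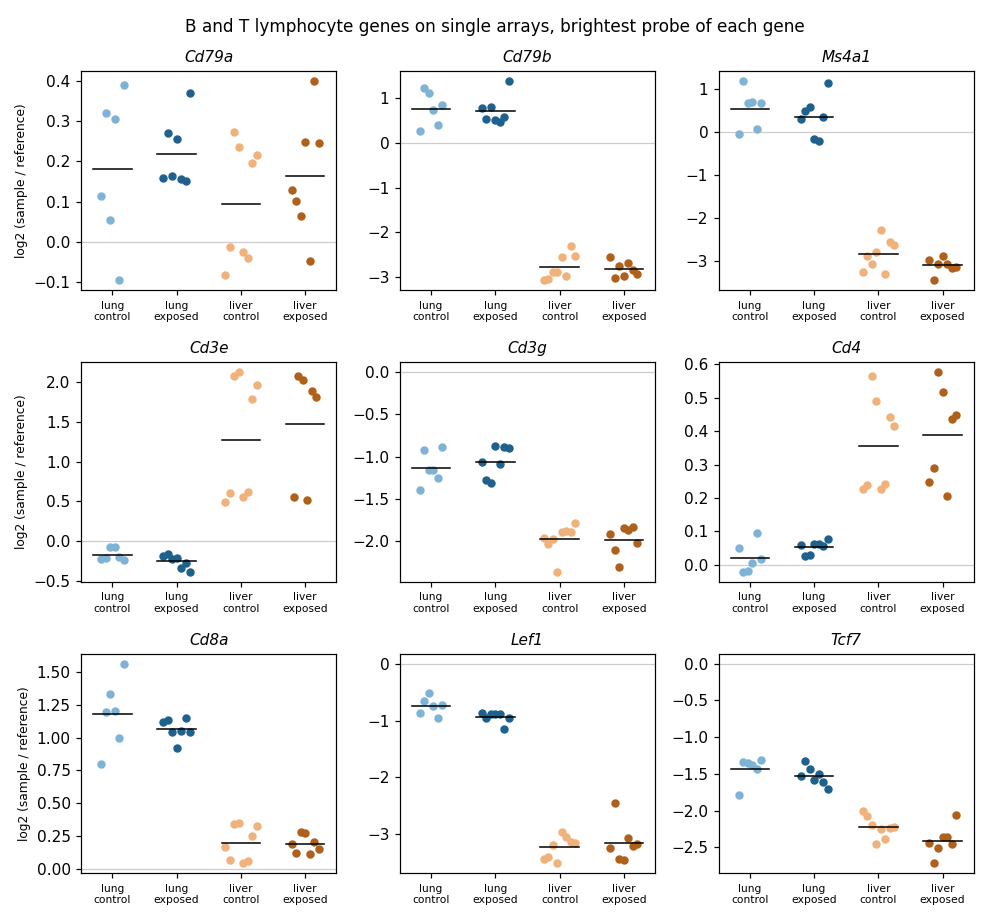
Log2 ratio of mouse over reference RNA (y axis) on each array for the brightest probe of the 9 genes, in control and exposed lung (blue) and liver (orange), with a bar at each group mean; the y axes differ between panels. Cd79b, Ms4a1 and Lef1 lie more than 2 log2 units higher in lung, Cd3e lies higher in liver at 2 separate levels, and the exposed and control arrays of a tissue overlap for every gene.

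Further lymphocyte genes were counted in the same comparison, where 30% of all probes were called higher and 29.7% lower in control lung and the median difference over all probes was -0.016. Of 15 further B cell surface and receptor genes, 13 were higher in lung and 0 lower, with a median difference of 1.13. Among them were Fcmr (2.58), Cd74, the class II invariant chain (2.28), and Cxcr5, the receptor that guides B cells into follicles (1.80). Of 15 genes of B cell signalling and transcription, 12 were higher and 1 lower, with a median of 1.07. Vpreb3 (2.71), Bcl11a (2.08) and Pou2af1 (1.81) led those higher in lung, and Ralgps2 (-0.90) was the one lower. Of 8 plasma cell and immunoglobulin genes tested, 6 were higher, led by Ighm, the heavy chain of IgM (2.38), and 2 lower. The lower ones were Xbp1 (-1.09) and Sdc1 (-0.63), which hepatocytes also express, and the part of hepatocytes in these values was not tested.

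The T cell lists were less uniform. Of 14 genes tested of the T cell receptor complex, 12 were higher in lung and 0 lower (median 0.76). Cd8b1, the partner of Cd8a, had the largest difference at 3.45, although a second Cd8b1 probe gave -0.01, and Cd3d, a further CD3 subunit, was higher by 2.12. Of 14 genes of T cell signalling, 9 were higher and 4 lower (median 0.73). Lck, the kinase bound to the coreceptors, was higher in lung by 1.84, and Zap70, the kinase recruited to CD3, was lower by 2.35 on the log2 scale. Of 14 genes of T cell transcription and naive homing, 9 were higher and 2 lower (median 1.33), with Gata3 at 2.45 and the homing receptor Ccr7 at 2.15. Of 8 genes of the Tcf and Lef family and beta-catenin signalling, 5 were higher and 1 lower (median 0.52).

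**Figure D2:**
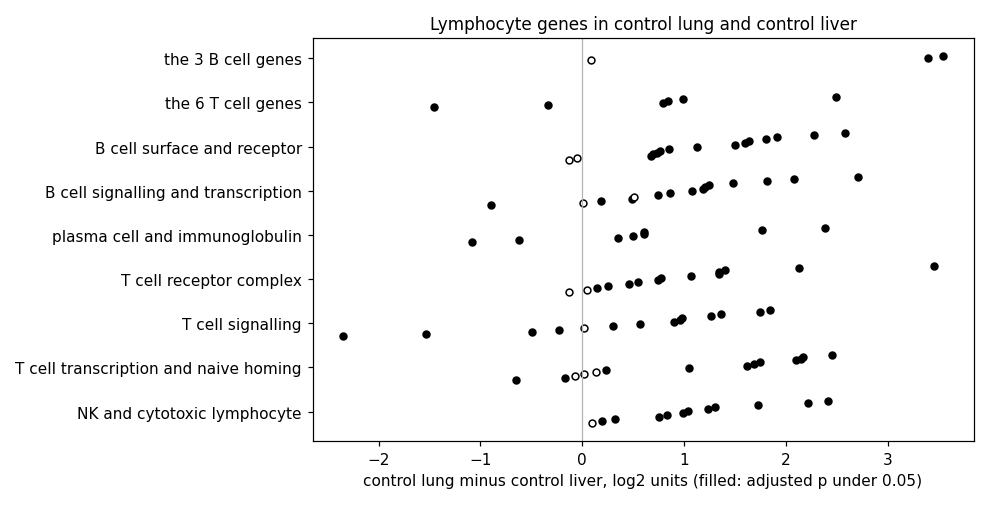
Log2 difference between control lung and control liver (x axis) for each gene of 9 lymphocyte lists (rows, brightest probe of a gene), filled where the adjusted p was under 0.05. Most genes of the B cell lists lie to the right of 0, and the T cell signalling list reaches from -2.35 to 1.84.

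The liver values of Cd3e were split by slide rather than by exposure. On slides 1 to 4 the mean log2 ratio was 0.56, 1.87, 0.55 and 2.08. The range of 1.53 between slide means was larger than that of 99.8% of the 40964 probes compared, and the adjusted p over the 4 slides was 4.2e-10. Within each slide the exposed and control mice lay close together, with exposed minus control differences of -0.068, -0.022, -0.00061 and -0.049. The Cy5 signal of the spot, net of background, was 111 to 116 intensity units on slide 1 and 133.5 to 152 on slide 3, against 712 to 828.5 on slide 2 and 932.5 to 1115 on slide 4. The share of spots well above background also differed by slide, at 56.6% to 59.2% on slide 1, 66.9% to 70.5% on slide 2, 55.1% to 59.5% on slide 3 and 63.2% to 66.4% on slide 4. Its part in the Cd3e values was not tested.

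Cd4 followed the same slides at a smaller scale. Its mean log2 ratio in liver was 0.23, 0.44, 0.25 and 0.54 on slides 1 to 4 (adjusted p = 0.00043), and over the 14 liver arrays with a value for both its residuals from the group means correlated with those of Cd3e at r = 0.96, on arrays that share their slides. Of the 17 probes, 5 were called as differing between liver slides, where 16.5% of all probes were. The others were those of Cd79a (range of slide means 0.30), Cd8a (0.24) and the second Lef1 probe (0.33). On slides 1 to 4 Cd79a had means of -0.038, 0.26, 0.033 and 0.21, and Cd8a 0.072, 0.23, 0.13 and 0.31. Slides 2 and 4 were thus the high ones for these genes too. The second Lef1 probe had -1.34, -1.67, -1.52 and -1.62, with slides 2 and 4 the low ones. The Cd3e difference between control lung and the control livers of slides 1 to 4 was -0.76, -2.05, -0.73 and -2.28 in turn, and that of Cd4 was -0.21, -0.41, -0.21 and -0.51, so both kept their sign against each slide.

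The probes of Cd3e and Cd4 shared a 6-base run, TGGCCC, that none of the other 15 probes held. The Cd79a probe and the brightest Cd8a probe lacked the run but were also high on slides 2 and 4. The run was noticed after the slide values were seen and is given as a description. The stretches of 30 bases around it, 5′ to 3′ with the run in capitals, are shown for the Cd4 probe and for the 3 probes with the run whose liver slide means ranged most.
Cd4: tcaagtggTGGCCCctgagacagggctgtg
Olfr638: actaacaccactcaTGGCCCtttctacttc
Efcbp2: cgtcctctgtgaTGGCCCgctacctagtag
Olfr1366: gcataccctcatgaTGGCCCgacttcattt
By the header of the lung arrays (build mm7) the whole Cd4 probe lies at chr6:124894079-124894138 on the minus strand. The probe of Olfr638, an olfactory receptor gene, had slide means of 0.91, 2.96, 1.1 and 3.06. That of Efcbp2 had 0.30, 2.4, 0.32 and 2.43, and that of Olfr1366, also an olfactory receptor gene, 1.06, 3.1, 1.07 and 3.01. In all of them slides 2 and 4 were the high ones, as for Cd3e.

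The run was present in 313 of the 40964 probes (0.764%) on the strand of the probe, and its reverse complement, GGGCCA, in 274 (0.669%). Of the 336 probes whose slide means ranged over more than 1 log2 unit, 25 (7.44%) held the run and 1 (0.298%) held the reverse complement. The median range was 0.26 for probes with the run, 0.21 for probes with its reverse complement and 0.17 for all probes. Between the lung slides the median range was 0.15 with the run and 0.14 for all probes.

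**Figure D3:**
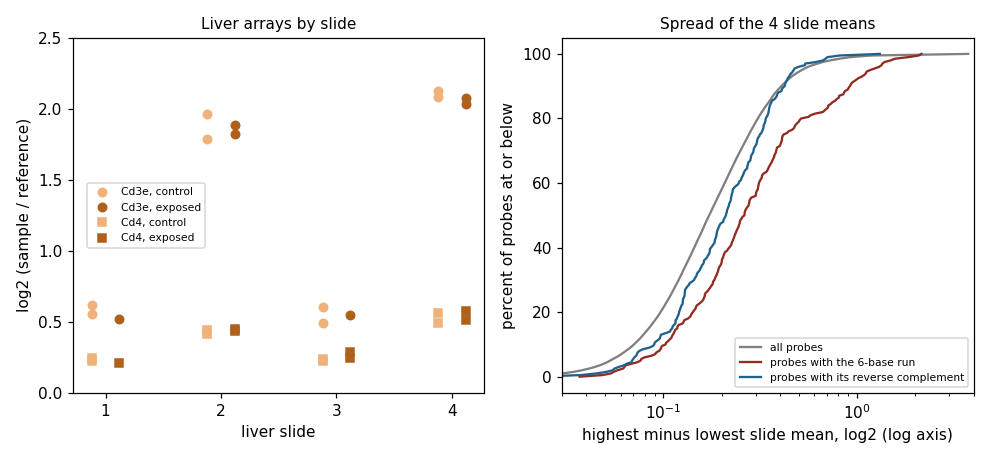
Left, log2 ratios of Cd3e (circles) and Cd4 (squares) on the liver arrays by slide, exposed and control; right, the percent of probes (y axis) whose highest minus lowest liver slide mean is at or below the value on the log x axis, for all probes, probes with the shared 6-base run and probes with its reverse complement. Slides 2 and 4 stand high for Cd3e and Cd4 in both exposed and control mice, and the curve of the probes with the run lies mostly to the right of the others.

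The next comparison asked whether inhaled nanoTiO2 changed these genes in the lung. None of the 9 genes differed between exposed and control lungs at an adjusted p under 0.05, where 83 of 41155 probes (0.202%) did. At an unadjusted p under 0.05 there was 1 of the 9, Lef1, where 7.13% of all probes passed. The exposed and control values of every one of the 9 overlapped, and those of 0.598% of all probes did not. In simulated data with this number of lung arrays, 50.5% of changes of 0.5 and 82% of changes of 1 log2 unit were called. The simulated spread was that of 24217 probes under median centering, not under the loess normalization used here. These shares therefore describe that setting only.

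Cd79b and Ms4a1 varied widely among mice of both groups. Cd79b ran from 0.46 over a median of 0.58 to 1.39 in exposed and from 0.27 over 0.80 to 1.23 in control lungs, and the difference was -0.04 (95% confidence interval -0.40 to 0.32). Ms4a1 ran from -0.19 over 0.37 to 1.15 in exposed and from -0.04 over 0.68 to 1.2 in control lungs, with a difference of -0.18 (-0.66 to 0.29). With slide as a fixed block these differences were 0.072 and 0.051. Cd79a differed by 0.04 (-0.12 to 0.19). For these 3 genes the groups overlapped, and the intervals do not exclude changes of these sizes.

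No T cell gene was called either. The exposed minus control difference was -0.08 for Cd3e (95% confidence interval -0.18 to 0.016), 0.07 for Cd3g (-0.13 to 0.27) and -0.12 for Cd8a (-0.32 to 0.085). For Cd4 it was 0.03 (-0.034 to 0.098), and the second Cd4 probe was well above background on 0 of 7 exposed and 3 of 6 control arrays. Tcf7 gave -0.09 by its brightest probe (-0.26 to 0.073) and 0.08 by its second (-0.054 to 0.21).

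Lef1 was the gene with the lowest p of the 9. Its log2 ratio ran from -1.15 over a median of -0.89 to -0.86 in exposed lungs and from -0.95 over -0.74 to -0.52 in control lungs. The values overlapped, with 4 of 6 control lungs above every exposed lung. The difference was -0.20 (SE 0.067), with an unadjusted p of 0.0096, an adjusted p of 0.53 from limma and an exact 2-sided permutation p of 0.014. The second Lef1 probe, missing for exposed mouse 23, gave -0.34 (SE 0.081, unadjusted p = 0.00092, adjusted p = 0.19; exact permutation p = 0.0087). Within slides 1, 2 and 3, which held both groups, the exposed minus control difference was -0.15, -0.26 and -0.22 for the brightest probe and -0.28, -0.31 and -0.36 for the second. Both probes stayed negative over their processing alternatives, at -0.22 to -0.10 and -0.36 to -0.23. Of the 13 fits that left out 1 lung array, only the one without control mouse 24 brought the second probe past the test, at -0.40 (adjusted p = 0.034 from limma).

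No gene of the further lymphocyte lists was called in the exposed lungs. Of the lists of B cell surface and receptor, B cell signalling, plasma cell, T cell receptor complex, T cell signalling and T cell transcription genes, none had a gene called in either direction, and their medians lay between -0.029 and 0.065. Icos, a costimulatory receptor of activated T cells, had the lowest p among them, with a difference of 0.58 (SE 0.12, adjusted p = 0.085). In the beta-catenin list, which holds partners and targets of Lef1 and Tcf7, 0 of 8 genes were called, and Sp5, a target of that pathway, stood at 0.51 (SE 0.10, adjusted p = 0.061). Among markers of other cells, 2 of 9 macrophage genes were called, Marco at 0.57 (adjusted p = 0.0092) and Siglecf at -0.70 (adjusted p = 0.011), and 0 of 9 neutrophil genes (median -0.23). The 8 hepatocyte genes were all above 0 in exposed minus control lungs, with a median of 0.83, 5 at an unadjusted p under 0.05 and 0 called. Their mean log2 ratio was 0.76 to 2.74 in exposed and 0.45 to 1.28 in control lungs, and its part in the lung differences was not tested.

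**Figure D4:**
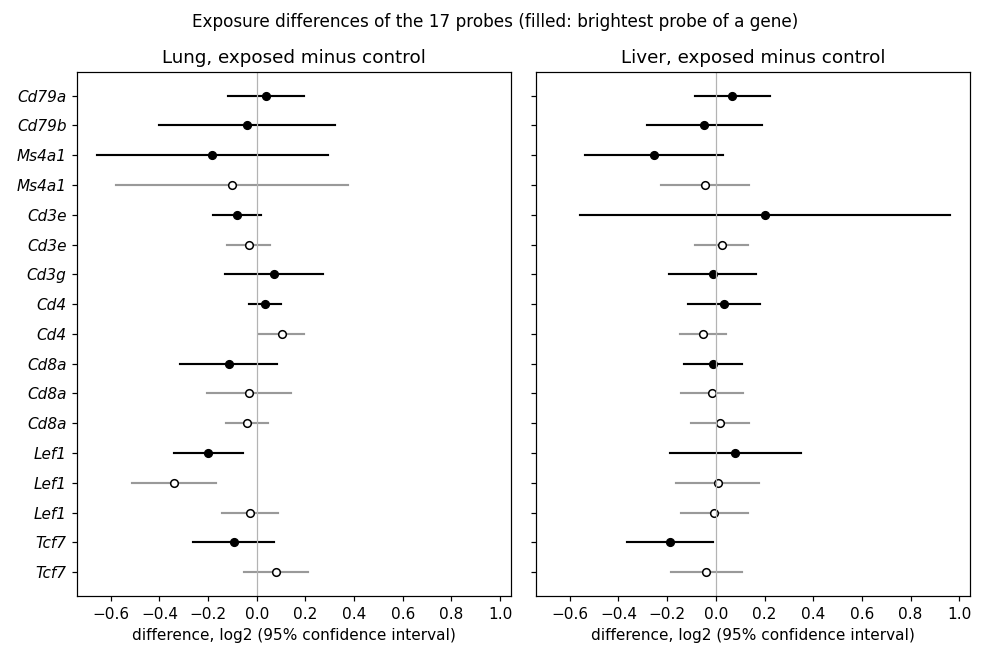
Exposed minus control difference in log2 ratio (x axis) with its 95% confidence interval for the 17 probes in lung (left) and liver (right); filled points are the brightest probe of each gene. In lung 2 of the 3 Lef1 probes and the second Cd4 probe, which was not well above background on any exposed lung array, have intervals that leave out 0, in liver only the brightest Tcf7 probe does, and none has an adjusted p under 0.05.

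In the liver, none of the 9 genes differed between exposed and control mice, and none of the 41143 probes did (0%), with 2.53% at an unadjusted p under 0.05. The values of the groups overlapped for all 9 genes, and did not for 0.173% of all probes. Tcf7 had the lowest p of the 9. It ran from -2.72 to -2.06 in exposed and from -2.46 to -2.01 in control livers, which overlapped, and the difference was -0.19 (95% confidence interval -0.36 to -0.010, unadjusted p = 0.040, adjusted p = 0.99998 from limma). The second Tcf7 probe gave -0.04 (-0.18 to 0.11).

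The other liver differences were within the spread of the mice. Ms4a1 differed by -0.26 (95% confidence interval -0.54 to 0.029), Cd79b by -0.05 (-0.28 to 0.19), Cd79a by 0.07 (-0.087 to 0.22) and Lef1 by 0.08 (-0.19 to 0.35). Cd3e differed by 0.20 with an interval of -0.56 to 0.96, the widest of the 9, and by -0.035 with slide as a fixed block. It was missing for exposed mouse 19, which lay on a low slide. Of 14 genes of T cell transcription and naive homing, 13 were below 0 in exposed minus control livers, with a median of -0.08, 4 at an unadjusted p under 0.05 and 0 called. So were 12 of 14 T cell receptor complex, 12 of 15 B cell signalling and 11 of 15 B cell surface genes. Of the T cell signalling genes 7 of 14 were below 0, and of the plasma cell genes 4 of 8. The median over all probes was -0.0039. The 7 hepatocyte genes tested were also below 0, with a median of -0.24 and 0 called, and their part in these differences was not tested.

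Whether exposure acted differently in lung and liver was tested as an interaction over all 28 arrays. None of the 9 genes passed, where 58 of 41125 probes (0.141%) did. The lung effect minus the liver effect was -0.28 for Lef1 (95% confidence interval -0.60 to 0.041, unadjusted p = 0.085) and -0.35 for its second probe (-0.59 to -0.10, unadjusted p = 0.0070, adjusted p = 0.86 from limma). For Cd79b it was 0.0063 (-0.42 to 0.44).

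Cd79b and Ms4a1 varied in lung between mice of the same group. The SD of Ms4a1 (0.46 in both groups) and of Cd79b (0.32 exposed, 0.38 control) was larger than that of 96.9% to 98.9% of the 26118 probes well above background in lung. That of Cd79a was 0.084 in exposed and 0.19 in control mice, larger than that of 27.0% and 79.6% of these probes. The residuals of Cd79b and Ms4a1 from their group means correlated at r = 0.90 over the 13 lung arrays. Exposed mouse 19 (Cd79b 1.39, Ms4a1 1.15) and control mouse 26 (1.23 and 1.2) were high in both, and control mouse 24 (0.27 and -0.04) was low in both. Exposed mice 20 (0.52 and -0.15) and 23 (0.46 and -0.19) had the lowest Ms4a1 values. Both lay on lung slide 4, which held no control array, and the part of the slide in these values was not tested. The second Ms4a1 probe put mice 19 and 26 highest as well, at 0.98 and 0.72, and mice 20 and 23 lowest, at -0.52 and -0.53.

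Over 19858 probes of other genes with a value on every lung array, the genes whose residuals were most like the mean of the 3 B cell genes over the 13 lungs were Ptprcap (r = 0.95), which encodes a protein bound to CD45, Siglecg (0.93), an inhibitory receptor of B cells, Tnfrsf13c (0.92), the receptor for the B cell survival factor BAFF, Bank1 (0.92), a B cell scaffold protein, and C130026I21Rik (0.91). These arrays share slides, and Cd79a followed less closely, at r = 0.51 with Cd79b and 0.60 with Ms4a1. For the mean of the 6 T cell genes the nearest were Susd4 (0.91), Tcrb-V13 (0.90), a T cell receptor beta segment, 9530013L04Rik (0.90), D930015E06Rik (0.89) and Gfpt1 (0.87). The mean of the 6 ran from -0.47 to -0.41 in exposed and from -0.57 to -0.26 in control lungs. Among single genes, Cd8a in control lungs ran from 0.80 to 1.56, with an SD larger than that of 93.3% of the 26118 probes, and the SD of Cd3g was larger than that of 85.9% in exposed and 81.6% in control lungs.

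**Figure D5:**
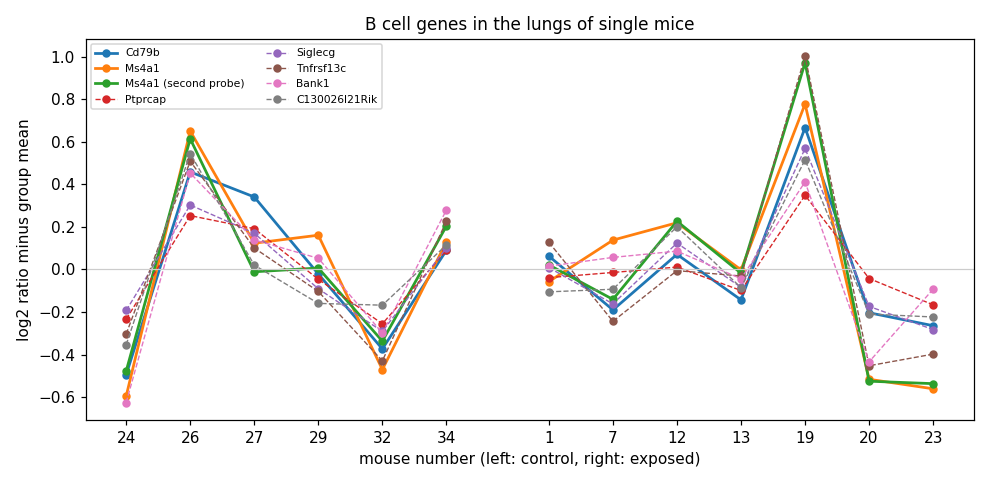
Log2 ratio minus the group mean (y axis) in the lung of each mouse (x axis, controls left, exposed right) for Cd79b and both Ms4a1 probes (solid) and the 5 genes most like the B cell mean (dashed). Mice 26 and 19 are high, mouse 24 is low, mice 20 and 23 are low for Ms4a1, and the exposed and control mice span similar ranges.

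In liver Cd79b and Ms4a1 had low ratios, and their residuals correlated at r = 0.73 over 15 arrays. Cd79a did not follow them there, at r = 0.14 with Cd79b and 0.18 with Ms4a1, and correlated at r = 0.82 with Cd3e over 14 arrays that share their slides. The genes nearest to the mean of the 3 in liver were 2010309G21Rik (r = 0.90), Ggta1 (0.85), ENSMUST00000074329 (0.83), P140 (0.82) and the unnamed probe A_51_P320477 (0.80), none of which was among the nearest in lung. For the mean of the 6 T cell genes in liver, over the 14 arrays with a value for each of them, they were LOC244911 (0.96), Olfr933 (0.96), 4930579G24Rik (0.96), Dnmt3l (0.96) and NAP101986-1 (0.95). Cd3e, whose liver values went with the slide, had the largest SD of the 6 genes there, at 0.74 in exposed and 0.77 in control mice.

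The probes of Cd4 and Cd8a were each printed 10 times on an array, which gave the error of the spot itself. For Cd4 in lung the SD between individual spots was 0.067 in exposed and 0.087 in control mice, and the SD between mice was 0.018 and 0.044. The SD between mice is that of values averaged over the 10 spots, and such averages vary less than individual spots. The lung SDs therefore do not show that the error of measurement exceeded the differences between mice. In liver the SD between mice, 0.14 in both groups, was above that between spots of 0.079 and 0.096. The liver values of Cd4 went with the slide, with means of 0.23, 0.44, 0.25 and 0.54 on slides 1 to 4. This SD therefore does not separate mice from slides, and the part of the slide in it was not tested. For Cd8a in control lung the SD between mice was 0.26 and that between spots 0.16.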

How the data were processed

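The mRNA arrays of 13 lungs and 15 livers were used, and the lung miRNA arrays were not used here. The files deposited by the authors hold spot and local background intensities as scanned, without normalization, and a processed table of log2 ratios made by LOWESS, which served as an alternative. Per the file headers, lung arrays were read with software version 9.5.3.1 (build mm7) and liver arrays with 10.1.1.1 (build mm8). All columns used were mapped to a mouse by the labels.

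Of the 45018 spots of an array, 43379 were no controls. Spots that the scanner marked as outliers in the signal or the local background of either channel (2.46% to 4.72% of spots) were left out. Median intensities were then corrected with normexp (offset 50), normalized within each array by loess, and averaged over the spots of a probe. The log2 ratios correlated with the authors' processed values at 0.992 to 0.996 per array. Group differences were fitted with limma 3.58.1 (lmFit, eBayes; R 4.3.3, statmod 1.5.0) and p-values adjusted by Benjamini-Hochberg over all probes, with a threshold of 0.05. Lung and liver were fitted separately, and the tissue difference and the interaction came from 1 fit of 4 groups. MAANOVA, which the methods name, was not run. A probe well above background on none of the arrays of a group has only a bound for its Cy5 fold there.

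For single genes every split of the arrays was also enumerated in an exact 2-sided permutation test. Genes were named by a rule: the 9 genes, up to 4 called genes with the largest differences of each further list, and the 5 symbols whose residuals correlated best with the B or T cell mean, among probes that passed the background criterion on 50% or more of the arrays. Some genes of the lists and 1 probe sequence are not reported here. Genes outside that rule, such as Icos and Sp5 in the exposed lungs, were named after their values were seen. The genes and lists were chosen with earlier results of these data known. Methods were tested on simulated data with changes added to 200 of 24217 probes. The number of arrays limits the precision. The labels give separate mice. In the 12 mice measured in both tissues, lung and liver residuals of the same mouse correlated at -0.075 to 0.22, and the mouse was a block in an alternative because 1 animal gave both samples.

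Alternatives were the background model fitted on all spots, no background correction, the scanner's own processed signals, centering on the median, the Cy5 channel alone, the authors' table, a filter on dim probes, 1 mean per gene symbol, slide as a fixed or random block, the mouse as a block, the control arrays alone and leaving out each array in turn. Leaving out each liver slide was added after seeing the data.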

Additional observations from a re-analysis of the deposited data

Results flagged for a closer look

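Among 40 sets of values of 6 to 8 mice (10 probes in each of 4 groups) tested for a mouse apart from the rest, 5 had one, where chance gives about 1 in 20. Cd79b in exposed lungs had its highest value, 1.39, in mouse 19, which was also high for Ms4a1. Lef1 in exposed lungs had its lowest value, -1.15, in mouse 13, and Lef1 in exposed livers its highest, -2.46, in mouse 19. The second Lef1 probe had no mouse apart in any group. On it mouse 13 was at -0.63 in lung, above mouse 1 at -0.76, and mouse 19 was at -1.44 in liver, below mouse 1 at -1.37. Cd3g in control livers had its lowest value, -2.36, in mouse 45, and Tcf7 in control lungs its lowest, -1.80, in mouse 24. On the second Tcf7 probe mouse 24 was at -1.79, with control mouse 26 beside it at -1.80.

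In the further lists, 2 genes passed the test of the exposure effect in lung against that in liver. Icos, the costimulatory receptor, had mean log2 ratios of 1.84 in exposed lungs (1.53 to 2.46), 1.25 in control lungs (1.03 to 1.46), 0.91 in exposed and 1.00 in control livers, a difference of effects of 0.68 (SE 0.14, adjusted p = 0.048 from limma). The second Icos probe had 0.42 in exposed and 0.33 in control lungs, a difference of 0.087 (adjusted p = 0.83). Its difference of effects was 0.19 (SE 0.087, unadjusted p = 0.039, adjusted p = 0.99997 from limma), in the same direction as that of the first probe but not called. Siglecf, a receptor of alveolar macrophages and eosinophils, had 1.41 in exposed and 2.11 in control lungs and the fitted difference of effects was -0.75 (SE 0.12, adjusted p = 0.0019). It was not well above background on any liver array, so this value does not show that the effects in the tissues differed.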

How the results depend on the processing

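No setting changed the count of genes called for exposure, which was 0 of 9 in lung, in liver and in the interaction. The tissue count of 8 became 6 with the background model fitted on all spots and 9 with processed signals from the scanner, and stayed at 8 without each array and with the mouse as a replicate block. The lung count over all probes moved from 83 to 14 with the background model on all spots, 4 under median centering and 133 under a random slide block. The interaction count moved from 58 to 6, 12 and 34 with the background model on all spots, median centering and processed signals. The causes were not tested.

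No difference that changed sign had an adjusted p under 0.05. In lung they were Cd79a at -0.010 (background model on all spots), -0.0077 (no background correction), -0.071 (processed signals) and -0.090 (Cy5 alone), Cd4 at -0.0070 (Cy5 alone), Cd79b at 0.062 (median centering) and 0.072 (slide as a fixed block), Ms4a1 at 0.051 (fixed block) and Tcf7 at 0.060 (background model on all spots). In liver they were Cd3e at -0.019 (mean over probes) and -0.035 (fixed block), Cd3g at 0.074 (median centering) and 0.00090 (fixed block), Cd4 at -0.010 (mean over probes), Cd79b at 0.097 (median centering), Cd8a at 0.018 (background model on all spots), 0.096 (processed signals) and 0.018 (Cy5 alone), and Lef1 at -0.59 (background model on all spots) and -0.072 (mean over probes). The second Lef1 probe had -0.35 (background model on all spots), -0.026 (no correction), -0.071 (processed signals) and -0.00061 (authors' table). In the interaction they were Cd4 at 0.27 (processed signals), 0.067 (mean over probes), 0.0098 (fixed block) and 0.0054 (random block), Cd79a at 0.0010 (authors' table), Cd79b at -0.0027 (processed signals), -0.034 (median centering) and -0.023 (authors' table), Lef1 at 0.49 and its second probe at 0.11 (background model on all spots), and Ms4a1 at -0.098 (Cy5 alone).

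Leaving out each array moved the lung difference of Cd79b from -0.15 to 0.051 and of Cd79a from -0.019 to 0.079. In liver it moved Cd3g from -0.068 to 0.041, Cd79b from -0.092 to 0.021, Cd8a from -0.033 to 0.011, Lef1 from -0.035 to 0.13 and its second probe from -0.026 to 0.044. The interaction ran from -0.031 to 0.031 for Cd4, -0.086 to 0.011 for Cd79a, -0.10 to 0.098 for Cd79b and -0.057 to 0.20 for Ms4a1. Without liver slide 2, Cd3g in liver was 0.0087, Cd79b 0.099 and Cd8a 0.024, Cd8a was 0.0019 without slide 4, and the second Lef1 probe was -0.042 without slide 3. Without each liver slide in turn the tissue difference of Cd3e was -1.70 to -1.18. The intervals given do not exclude differences of the sizes inside them.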

Other observations

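Other lymphoid genes also differed between the tissues of control mice. Of 12 genes of NK and other cytotoxic lymphocytes, 11 were higher in control lung and 0 lower (median log2 difference 1.01), led by the NK receptor chain Klrd1 (2.41) and the granule proteins Gzma (2.21) and Nkg7 (1.72). Of 7 genes tested of lymph node and follicle stroma, 4 were higher, among them the chemokines Ccl21a (2.32) and Cxcl13 (0.79) and the cytokine Ltb (1.99), and Madcam1, an adhesion molecule of mucosal vessels, was lower (-0.91). In exposed lungs none of these 19 genes was called. Ccl19, a chemokine that draws naive T cells, had the lowest p of the stroma genes, with a difference of 0.36 (SE 0.091, adjusted p = 0.21).

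The 6 thymocyte genes were split, with 1 higher and 3 lower in control lung. Dntt, which adds bases at the joints of antigen receptor genes, had log2 ratios of -1.32 in control lung and 2.24 in control liver, a difference of -3.57 (SE 0.20). Its other 2 probes were well above background on only 1 and 0 of the 13 lung arrays, and on 15 and 1 of the 15 liver arrays. The former gave a difference of -2.24 (SE 0.15). The latter gave -0.086 (SE 0.062), which did not pass the test (adjusted p = 0.25 from limma). Zap70 had -0.58 in control lung and 1.77 in control liver, where its values ran from 1.1 to 2.17.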
